A study of Caenorhabditis elegans with 17 samples.

Results

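The 9 genes described here encode the intermediate filaments of the Caenorhabditis elegans intestine and the proteins of its brush border. They are ifb-2, ifc-1, ifc-2, ifd-1, ifd-2 and ifp-1, which encode filament proteins, ifo-1, which encodes the organizer of these filaments, act-5, which encodes the actin of the intestinal microvilli, and erm-1, which encodes the protein that ties that actin to the apical membrane. They were taken by gene name from a table of 26786 genes, in which 9 of the 9 were found. All 9 passed the filter on low values, as did 13084 genes in all. RNA came from whole adults on day 1 (96 h, 20 °C) that carried rmIs133 [unc-54p::Q40::YFP], a transgene in which a muscle myosin promoter drives a polyglutamine stretch fused to YFP, so that animals of every group, controls included, made this protein in body wall muscle. The animals were fed RNAi bacteria in 4 groups: the empty vector L4440 with 5 libraries, and ash-2 RNAi, hsf-1 RNAi and ash-2 + hsf-1 RNAi with 4 libraries each. The product of ash-2 belongs to the complexes that methylate histone H3 at lysine 4, and the product of hsf-1 is the transcription factor of the heat shock response. In the 2 groups that received ash-2 RNAi the parents had been on it from the egg, so that parental and own exposure cannot be told apart there.

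The intestine of the worm is a tube of large epithelial cells whose apical side carries a dense brush border of microvilli. Each microvillus has a core of ACT-5 actin, and ERM-1, the ezrin, radixin and moesin homologue, links that core to the membrane. Beneath the microvilli lies the endotube, a sheet of intermediate filaments that surrounds the lumen at the level of the junctions and gives the tube its mechanical strength, and IFO-1 is needed for its filaments to gather there.

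In build WBcel235 the genes lie on 6 chromosomes. ifb-2 (F10C1.7) spans 5750188 to 5754140 on chromosome II and ifc-1 (F37B4.2) spans 2881393 to 2883753 on chromosome V. ifc-2 (M6.1) spans 642156 to 654904, ifd-2 (F25E2.4) 813854 to 815929, ifd-1 (R04E5.10) 8820703 to 8824448 and ifp-1 (C43C3.1) 9675873 to 9680169, all on chromosome X. ifo-1 (F42C5.10) spans 7320734 to 7326663 on chromosome IV, act-5 (T25C8.2) 13604412 to 13606066 on chromosome III and erm-1 (C01G8.5) 5284026 to 5291604 on chromosome I. Each value is for a whole gene: ifc-2 has 7 annotated transcripts, ifb-2 has 3 and erm-1 has 2, and the isoforms were not separated. No exon of another annotated gene overlapped an exon of the 9. Reads of act-5 could be shared with its near relatives act-1, act-2, act-3 and act-4, whose values are given beside it.

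Levels are FPKM, the fragments of a gene scaled by transcript length and by the mapped fragments of the library. The files hold no counts, and the lowest FPKM steps put depth at about 16.2 to 19.3 M fragments a library, an estimate. On that estimate the act-5 value rested on 13000 to 24307 fragments a library and that of ifd-1 on 27.8 to 844. The targeted transcripts came first as a check of the labels. The ash-2 transcript had a mean of 16.4 ± 1.89 FPKM (SD, n = 5) in controls, 5.46 ± 3.64 under ash-2 RNAi and 8.47 ± 3.42 under both clones. In replicates 1 to 4 it was at 2.04, 8.68, 2.57 and 8.54 FPKM under ash-2 RNAi and at 7.85, 11.6, 3.92 and 10.6 under both clones. The hsf-1 transcript had a mean of 29.9 ± 2.92 FPKM in controls, 12.5 ± 3.55 under hsf-1 RNAi and 9.74 ± 2.60 under both clones. Under ash-2 RNAi it was at 30.0 ± 12.7, with 16.3, 41.5, 22.1 and 40.2 FPKM in replicates 1 to 4. In the hsf-1 RNAi group the ash-2 transcript was at 16.9, 17.4, 16.8 and 5.57 FPKM. Its replicate 4 thus lay within the ash-2 RNAi range of 2.04 to 8.68. The label of that library was kept, and the reason for the low value was not tested. In 4 libraries, ash-2 replicates 1 and 3, hsf-1 replicate 4 and ash-2 + hsf-1 replicate 3, fewer genes were detected at an FPKM of at least 1 (9401 to 10745) than in the other 13 (11170 to 13066). Each of these 4 also had less ash-2 transcript than the libraries of its own group with more detected genes. Values without these libraries stand beside calls of the 9 genes and of related lists that they change. Sperm markers differed between groups, with a summed level of 7 genes of 255 to 320.5 FPKM in the L4440 libraries, 17.6 to 51.2 under ash-2 RNAi, 386 to 549 under hsf-1 RNAi and 136 to 186.5 under both clones. Their part in the results below was not tested.

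With the empty vector, act-5 was the most abundant of the 9 at 787 ± 29.5 FPKM (SD, n = 5), which placed it 167th among the 13084 tested genes. erm-1 followed at 105.8 ± 4.78 and ifb-2 at 94.7 ± 6.66, and the ranges of this pair overlapped. ifc-2 was next at 44.0 ± 3.44 FPKM. ifc-1 (10.5 ± 1.00) and ifd-2 (9.52 ± 1.68) overlapped each other, as did the neighbours ifo-1 (5.17 ± 0.82), ifp-1 (4.11 ± 1.17) and ifd-1 (3.60 ± 1.42). In the hsf-1 RNAi group the order changed at the top, since ifb-2 stood above erm-1 in each of the 4 libraries.

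**Figure D1:**
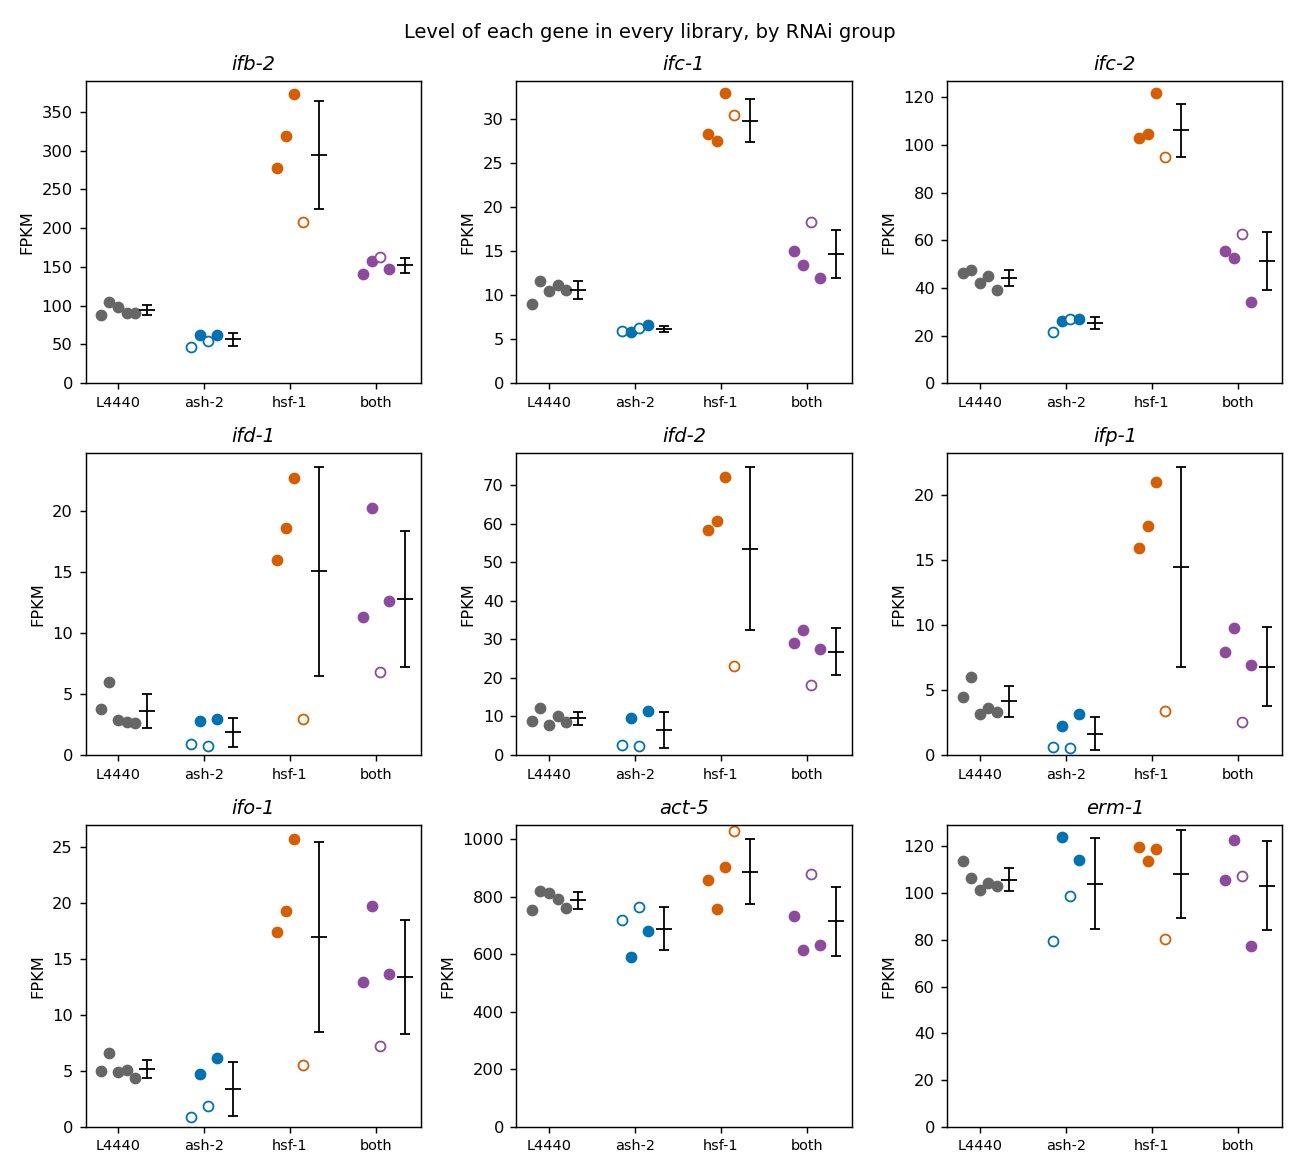
FPKM of the 9 genes in every library, 1 panel a gene, with the 4 RNAi groups on the x axis (both: ash-2 + hsf-1), mean ± SD beside the points, and open points for the 4 libraries with few detected genes. The 4 hsf-1 libraries of ifb-2 sit between 208.4 and 373.3 FPKM, above the L4440 libraries at 88.1 to 104.4, whereas erm-1 stays near 100 in each group.

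With hsf-1 RNAi, transcripts of the endotube filaments were higher than with the empty vector, by 2.39 to 5.03-fold for the 5 filament genes that passed the test, while the brush border genes act-5 and erm-1 did not pass it. The 5 were ifb-2, ifc-1, ifc-2, ifd-1 and ifd-2. They are 5 of the 9 genes, against 7.72% of all genes tested that were called higher (limma, adjusted p under 0.05 with Benjamini-Hochberg adjustment over all genes tested). The median log2 change of the 9 was 1.45, beside -0.03 over all genes tested. In RNA from whole animals, a larger share of RNA from the intestine and more of these transcripts within that RNA cannot be told apart.

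ifb-2 encodes the most abundant of the 6 filament transcripts. Its level was 88.1, 104.4, 98.6, 91.2 and 91.1 FPKM in the 5 L4440 libraries and 277.5, 318.8, 373.3 and 208.4 in the 4 hsf-1 libraries. The lowest hsf-1 library, replicate 4, was still above every L4440 library. The log2 change was 1.60 ± 0.14 (SE; adjusted p = 1.32e-06, limma), 3.04-fold.

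ifc-1 and ifc-2 encode filament proteins of the same subfamily, and IFC-2 is also found in the excretory canal. ifc-1 was at 8.97, 11.6, 10.4, 11.2 and 10.6 FPKM with L4440 and at 28.2, 27.5, 32.9 and 30.4 with hsf-1 RNAi. ifc-2 was at 46.4, 47.5, 42.2, 45.0 and 39.0 FPKM with L4440 and at 102.7, 104.7, 121.8 and 94.9 with hsf-1 RNAi. In neither gene did the groups overlap, and hsf-1 replicate 4 lay close to its group. A range wholly above L4440 was seen in 4 of the 9 genes and in 10.5% of all genes tested. The log2 changes were 1.45 ± 0.17 for ifc-1 (adjusted p = 1.66e-05) and 1.26 ± 0.16 for ifc-2 (adjusted p = 4.71e-05, limma). Markers of the excretory canal gave 0 of 7 tested genes called in either direction (limma; 1 of 7 at an unadjusted p under 0.05), with a summed level of 136 to 158 FPKM with L4440 and 124 to 191.5 with hsf-1 RNAi. Without the 4 libraries with few detected genes 1 of the 7 was called higher, exc-5 (1.45 ± 0.28, adjusted p = 0.00192), against 17.9% of all genes tested.

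ifd-2 showed the highest fold of the 9. It was at 8.85, 12.2, 7.88, 10.1 and 8.59 FPKM with L4440 and at 58.4, 60.8, 72.1 and 23.01 with hsf-1 RNAi. Replicate 4 was the lowest of its group but above all 5 L4440 libraries, and the log2 change was 2.33 ± 0.42 (adjusted p = 0.0013, limma). Its relative ifd-1 was at 3.74, 6.01, 2.89, 2.74 and 2.61 FPKM with L4440 and at 16, 18.6, 22.7 and 2.92 with hsf-1 RNAi. Here replicate 4 fell inside the L4440 range, and the log2 change of 1.68 ± 0.51 was close to the threshold (adjusted p = 0.0437). That call was lost when any of 8 of the 17 libraries was left out, with adjusted p from 0.0569 to 0.17.

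ifp-1, which encodes the sixth filament protein, and ifo-1 had the same shape and missed the threshold. ifp-1 was at 4.49, 5.99, 3.19, 3.62 and 3.28 FPKM with L4440 and at 15.9, 17.6, 21.0 and 3.40 with hsf-1 RNAi. ifo-1 was at 4.97, 6.56, 4.91, 5.08 and 4.35 FPKM with L4440 and at 17.4, 19.3, 25.8 and 5.498 with hsf-1 RNAi. In both genes 3 hsf-1 libraries lay well above the control range and replicate 4 lay within it. The log2 changes were 1.48 ± 0.51 (adjusted p = 0.0781) and 1.45 ± 0.46 (adjusted p = 0.0552). Without hsf-1 replicate 4 they were 2.04 (adjusted p = 0.00437) and 1.90 (adjusted p = 0.00581), and 7 of the 9 genes were called higher, against 11.6% of all genes tested. Without the 4 libraries with few detected genes the same 7 genes were called higher, against 17.9%. The 3 hsf-1 libraries that remain had 12855, 12804 and 13066 detected genes, more than the highest L4440 library at 12664. With the number of detected genes as a covariate the log2 changes were smaller. They were 1.08 for ifp-1 (adjusted p = 8.69e-05), 1.10 for ifo-1 (adjusted p = 0.000193) and 1.28 for ifd-1 (adjusted p = 2.56e-05, limma). The same 7 genes were called higher there, against 14.0%.

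The genes of the microvilli themselves differed less. act-5 was at 751.7, 818.0, 811.9, 791.5 and 761.7 FPKM with L4440 and at 859.1, 756.6, 904.1 and 1028 with hsf-1 RNAi, so that the groups overlapped. Its log2 change was 0.16, with a 95% interval of -0.09 to 0.42 (adjusted p = 0.514, limma). erm-1 was at 113.6, 106.6, 101.2, 104.5 and 103.2 FPKM with L4440 and at 119.6, 113.7, 118.8 and 80.2 with hsf-1 RNAi. Its log2 change was 0.01, with an interval of -0.32 to 0.35 (adjusted p = 0.967). Both intervals leave out a log2 change of 1 in either direction. The muscle and cytoplasmic actin genes act-1, act-2, act-3 and act-4 gave 0 of 4 called, with log2 changes of -0.23 to 0.26, and 1 of the 4 (act-4) had an unadjusted p under 0.05. Without the 4 libraries with few detected genes act-2 was called lower (-0.45 ± 0.14, adjusted p = 0.0353).

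**Figure D2:**
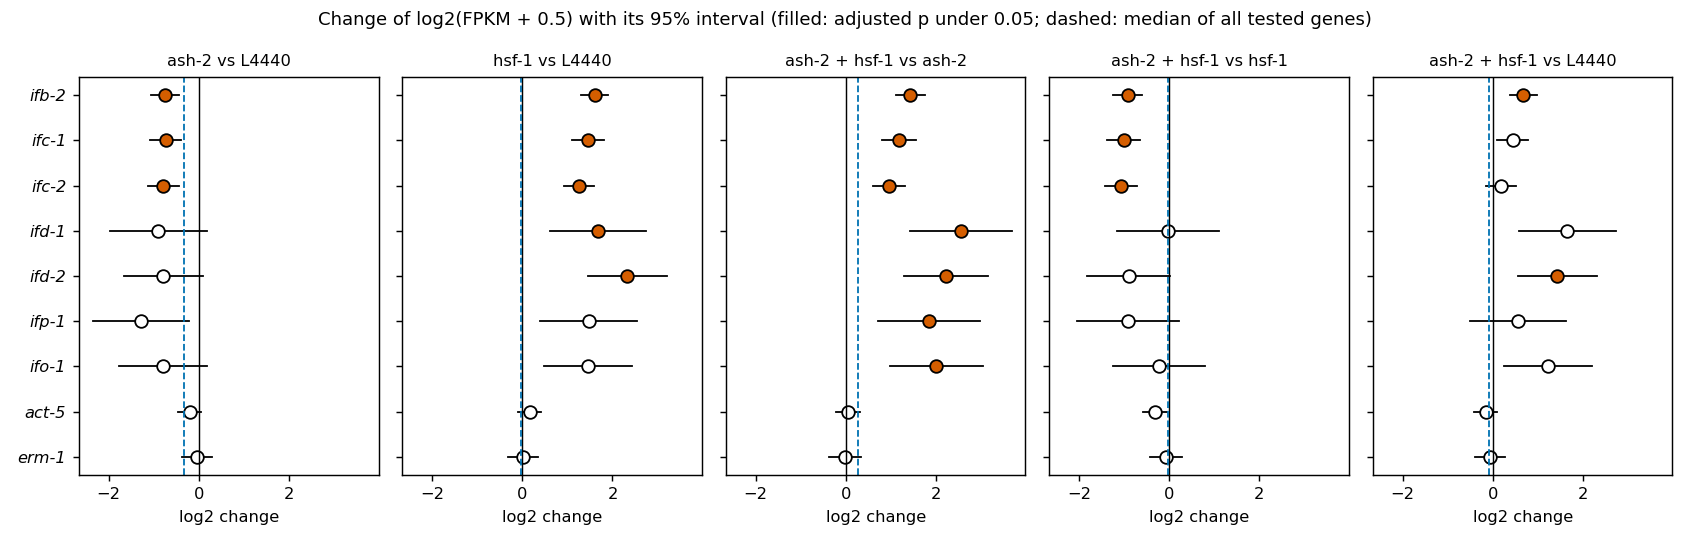
Log2 change of log2(FPKM + 0.5) of the 9 genes in 5 comparisons, 1 panel each, with the 95% interval as a line, filled points for an adjusted p under 0.05 and the median of all tested genes as a dashed line. With hsf-1 RNAi the 7 filament and organizer genes lie between 1.26 and 2.33 and act-5 and erm-1 near 0. In the ash-2 comparison the 3 filled points lose their calls under median-of-ratios scaling, where act-5 and erm-1 lie above 0.

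With ash-2 RNAi, ifb-2, ifc-1 and ifc-2 were lower than with L4440, each at close to 60% of the control mean, and no member was called higher. These 3 of 9 stand beside 15.5% of all genes tested that were called lower. The median change of all genes tested was itself -0.32 in this comparison, and relative to it the 3 log2 changes were -0.43, -0.42 and -0.47. ifb-2 was at 46.4, 62.4, 53.9 and 62.8 FPKM in the 4 ash-2 libraries, each below the lowest L4440 library (log2 change -0.75 ± 0.14, adjusted p = 0.00112, limma). ifc-1 was at 5.90, 5.77, 6.22 and 6.56 FPKM (-0.74 ± 0.17, adjusted p = 0.00384), again below every control library. ifc-2 was at 21.6, 26.1, 26.8 and 27.02 FPKM (-0.78 ± 0.16, adjusted p = 0.00166), with no overlap either. Such a range wholly below L4440 was seen in 3 of the 9 genes and in 18.4% of all genes tested. The 3 calls depended on the scaling: under median-of-ratios scaling the log2 changes were -0.41, -0.41 and -0.45 with adjusted p of 0.108, 0.202 and 0.116. Under quantile normalization ifb-2 (-0.77, adjusted p = 0.00125) and ifc-2 (-0.64, adjusted p = 0.00199) kept their calls and ifc-1 (-0.22, adjusted p = 0.55) did not. Under median-of-ratios scaling ifp-1 was the 1 of 9 genes called lower (-1.06, adjusted p = 0.0335), against 16.4% of all genes tested.

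The other 4 genes of the endotube differed between the libraries of the ash-2 RNAi group. ifd-1 was at 0.878 and 0.749 FPKM in replicates 1 and 3 but at 2.82 and 2.98 in replicates 2 and 4. ifd-2 was at 2.57 and 2.47 FPKM in the first pair and at 9.60 and 11.3 in the second. ifp-1 was at 0.590 and 0.568 FPKM against 2.24 and 3.19, and ifo-1 at 0.876 and 1.86 against 4.70 and 6.13. Replicates 1 and 3 are those with few detected genes, and replicates 2 and 4 lay within or near the L4440 range. The log2 changes of these 4 genes were -1.28 to -0.79 and none passed the threshold (adjusted p from 0.0882 for ifp-1 to 0.236 for ifo-1). When the libraries with few detected genes were left out, ifd-2 and ifo-1 had the opposite sign (0.14 and 0.06), and the same 3 of 9 genes were called lower, against 11.6% of all genes tested.

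act-5 was at 718.9, 588.9, 765.3 and 678.6 FPKM with ash-2 RNAi, overlapping the controls. Its log2 change was -0.20, with an interval of -0.45 to 0.05 (adjusted p = 0.249, limma), and 0.14 under median-of-ratios scaling. erm-1 was at 79.6, 124.0, 98.6 and 114.0 FPKM, on both sides of the L4440 range. Its log2 change was -0.04 (interval -0.38 to 0.29, adjusted p = 0.867) and 0.30 under median-of-ratios scaling, so neither gene had a direction that held across scalings. act-5 was called lower under quantile normalization (-0.28, adjusted p = 0.0361) and with the number of detected genes as a covariate (-0.41, adjusted p = 0.0197), and erm-1 was called higher with centring on intestine markers (0.35, adjusted p = 0.0344). The other actin genes gave 0 of 4 called, and 0 of 4 reached an unadjusted p under 0.05.

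When hsf-1 RNAi was added to ash-2 RNAi, the 6 filament genes and ifo-1 were all higher than with ash-2 RNAi alone, by 1.96 to 5.87-fold. These 7 of 9 stand beside 12.0% of all genes tested called higher, and the median of the 9 was 1.43 beside 0.27 over all genes tested. ifb-2 was at 140.3, 157.7, 162.4 and 147.3 FPKM with ash-2 + hsf-1 RNAi, so that the lowest of these was above the highest ash-2 library at 62.8 (log2 change 1.43 ± 0.15, adjusted p = 1.25e-05, limma). ifc-1 was at 14.96, 13.3, 18.3 and 11.9 FPKM (1.18 ± 0.18, adjusted p = 0.000221). ifc-2 was at 55.5, 52.6, 62.7 and 33.9 FPKM (0.97 ± 0.17, adjusted p = 0.000767). In these 3 genes replicate 3, the library with few detected genes, was the highest of its group.

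ifd-1 was at 11.4, 20.2, 6.81 and 12.6 FPKM with ash-2 + hsf-1 RNAi (log2 change against ash-2 RNAi 2.55 ± 0.54, adjusted p = 0.00327, limma). ifd-2 was at 29.1, 32.5, 18.1 and 27.5 FPKM (2.22 ± 0.44, adjusted p = 0.00212). ifo-1 was at 12.9, 19.8, 7.24 and 13.6 FPKM (2.01 ± 0.49, adjusted p = 0.00882). In these genes replicate 3 was the lowest of its group yet above the 4 ash-2 libraries. A range wholly above ash-2 RNAi was seen in 6 of the 9 genes and in 12.9% of all genes tested. ifp-1 was at 7.95, 9.73, 2.56 and 6.89 FPKM, and its replicate 3 lay inside the ash-2 range (1.84 ± 0.53, adjusted p = 0.0261). That call was lost when any of 5 libraries was left out (adjusted p from 0.0624 to 0.09). When the libraries with few detected genes were left out, the same 7 genes were called higher, against 11.2% of all genes tested, with log2 changes of 0.79 to 2.12. The log2 change of ifd-2 was then 1.46.

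act-5 was at 732.1, 615.6, 876.8 and 631.5 FPKM with ash-2 + hsf-1 RNAi and erm-1 at 105.5, 122.8, 107.2 and 77.3. Both overlapped every other group. Against ash-2 RNAi the log2 change of act-5 was 0.05 (interval -0.22 to 0.31, adjusted p = 0.836, limma) and that of erm-1 was -0.01 (interval -0.36 to 0.34, adjusted p = 0.969).

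Against hsf-1 RNAi alone, the animals with both clones had lower ifb-2, ifc-1 and ifc-2, each at a ratio of 0.475 to 0.527. The 3 of 9 called lower stand beside 8.42% of all genes tested. The log2 changes were -0.92 ± 0.15 for ifb-2 (adjusted p = 0.0011), -1.01 ± 0.18 for ifc-1 (adjusted p = 0.00143) and -1.07 ± 0.17 for ifc-2 (adjusted p = 0.00075, limma), and in each gene the groups did not overlap. A range wholly below hsf-1 RNAi was seen in 8.77% of all genes tested. The log2 changes of ifd-2 and ifp-1 were -0.90 and -0.92 and did not pass (adjusted p = 0.259 and 0.384). With the libraries of few detected genes left out, both were called, at -1.09 (adjusted p = 0.0013) and -1.10 (adjusted p = 0.00632), which made 5 of 9 lower against 14.8%. ifd-1 and ifo-1 were at -0.02 and -0.23 (adjusted p = 0.994 and 0.891).

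Against L4440, whose libraries are also the control of the single RNAi groups, ifb-2 (log2 change 0.68 ± 0.14, adjusted p = 0.00556) and ifd-2 (1.43 ± 0.42, adjusted p = 0.0402, limma) were higher with both clones. These 2 of 9 stand beside 3.68% of all genes tested. For ifb-2 the 4 libraries at 140.3 to 162.4 FPKM were above the L4440 range of 88.1 to 104.4. ifd-2 lost its call when any of 10 of the 17 libraries was left out (adjusted p from 0.051 to 0.0944). ifd-1 (1.66, adjusted p = 0.0517), ifo-1 (1.22, adjusted p = 0.128) and ifc-1 (0.44, adjusted p = 0.125) were not called but also had groups that did not overlap. A range wholly above L4440 was seen in 5 of the 9 genes and in 5.24% of all genes tested. Without the libraries with few detected genes ifb-2, ifd-1, ifd-2, ifp-1 and ifo-1 were called higher, 5 of 9 against 6.11%.

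Whether the response to hsf-1 RNAi differed with and without ash-2 RNAi was tested as an interaction. It was called for 0 of the 9 genes, and 0 reached an unadjusted p under 0.05 (smallest adjusted p = 0.698, limma). Over all genes tested, 0.107% were called. With the 4 libraries of few detected genes left out, again 0 of the 9 were called, but 2 had an unadjusted p under 0.05: ifd-2 at -1.23 ± 0.27 (adjusted p = 0.0913), against -0.11 with all libraries, and ifb-2 at -0.52 ± 0.19 (adjusted p = 0.396). The interaction of ifb-2 was -0.17 on the log2 scale with an interval of -0.62 to 0.27, and that of ifc-2 was -0.29 with an interval of -0.78 to 0.20. The intervals were wide for the low genes, from -0.68 to 2.44 for ifd-1, so that differences of this size were not detectable here.

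The 6 filament transcripts were next read as a mixture, since filaments of this kind are built from several proteins. Their summed level was 166.5 ± 12.5 FPKM (SD, n = 5) with L4440, 97.9 ± 16.6 with ash-2 RNAi, 513 ± 117 with hsf-1 RNAi and 264 ± 19.4 with ash-2 + hsf-1 RNAi. The ratio of ifb-2 to the sum of the other 5 was 1.33 ± 0.12, 1.38 ± 0.12, 1.34 ± 0.06 and 1.37 ± 0.20 in the same order. Among the 17 libraries it ranged from 1.18 to 1.59. The 4 group means of this ratio lay closer together than the SD of any group. The share of ifc-2 was 26.5% ± 1.64 with L4440, 26.2% ± 2.85 with ash-2 RNAi, 21.2% ± 3.39 with hsf-1 RNAi and 19.3% ± 3.95 with ash-2 + hsf-1 RNAi. The share of ifd-2 was 5.70% ± 0.66 with L4440, 6.19% ± 3.71 with ash-2 RNAi, 10.1% ± 2.51 with hsf-1 RNAi and 10.2% ± 2.32 with ash-2 + hsf-1 RNAi. Set against the microvillar actin, ifb-2 was at 11.5% to 12.8% of the act-5 level in the L4440 libraries, 6.46% to 10.6% under ash-2 RNAi, 20.3% to 42.1% under hsf-1 RNAi and 18.5% to 25.6% under both clones. These shares are descriptions, and no test was made on them.

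**Figure D3:**
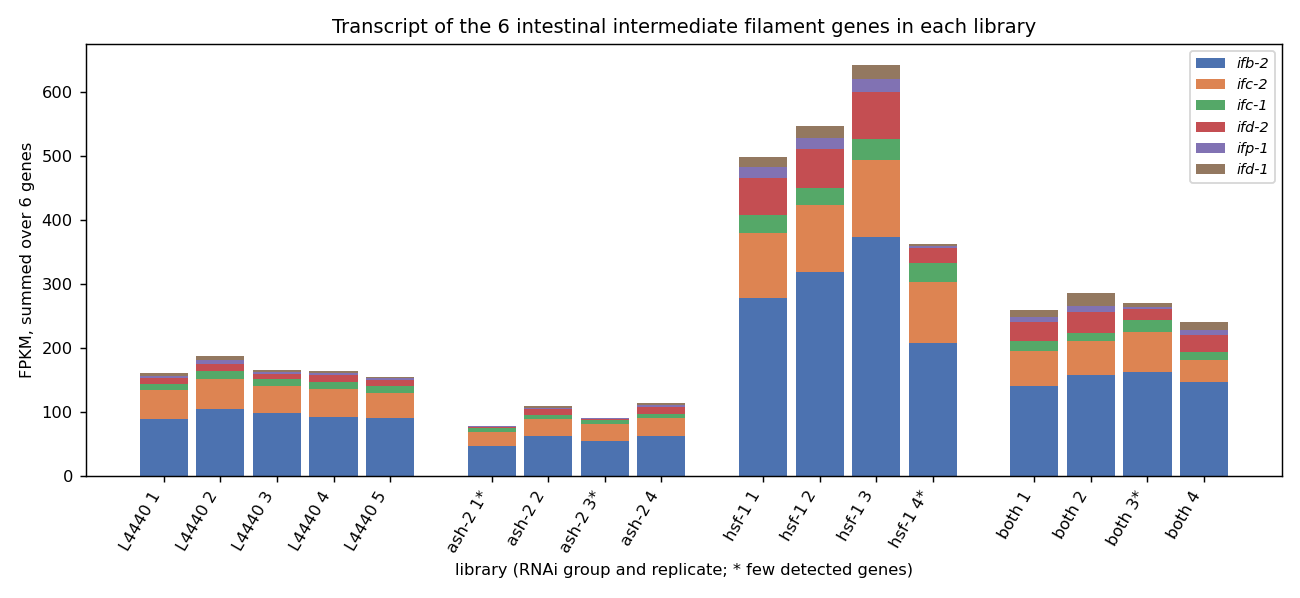
Summed FPKM of the 6 intestinal intermediate filament genes in each of the 17 libraries, stacked by gene and grouped by RNAi (both: ash-2 + hsf-1), with an asterisk on the 4 libraries with few detected genes. The L4440 bars reach 155 to 188 FPKM and the hsf-1 bars 363 to 644, and ifb-2 makes up 54.1% to 61.3% of each bar.

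The genes differed in how steady they were within a group, and 2 sets were told apart after their values were seen. In the 4 libraries with few detected genes, ifd-1, ifd-2, ifp-1 and ifo-1 stood at 15.3% to 61.1% of the mean of their group's other libraries. ifb-2, ifc-1 and ifc-2 stood at 64.5% to 137% there, act-5 at 113% to 133% and erm-1 at 66.9% to 105%. The median over all tested genes was 56.5% to 81.5% in these libraries. In each of the 4 libraries the 4 low genes were below that median and the 5 others above it. The longest transcripts of the low genes span 1513 to 4037 bp, those of ifb-2, ifc-1 and ifc-2 span 1680 to 4317 bp, and that of act-5, the shortest, has 1270 bp. Over all tested genes with a length, the slope of the log2 level relative to L4440 on log2 length was -0.266 to -0.0967 in these libraries and -0.137 to 0.16 in the other 13, and its part in the split was not tested. Within the L4440 group, where no library stood apart in this way, the coefficient of variation was 3.75% for act-5, 4.52% for erm-1, 7.03% for ifb-2, 7.82% for ifc-2, 9.50% for ifc-1, 15.9% for ifo-1, 17.6% for ifd-2, 28.4% for ifp-1 and 39.4% for ifd-1. It rose as the mean level fell, except that ifo-1 and ifd-2 changed places. L4440 replicate 2, with the most detected genes of its group (12664), had the group's highest ifd-1, ifd-2, ifp-1 and ifo-1.

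**Figure D4:**
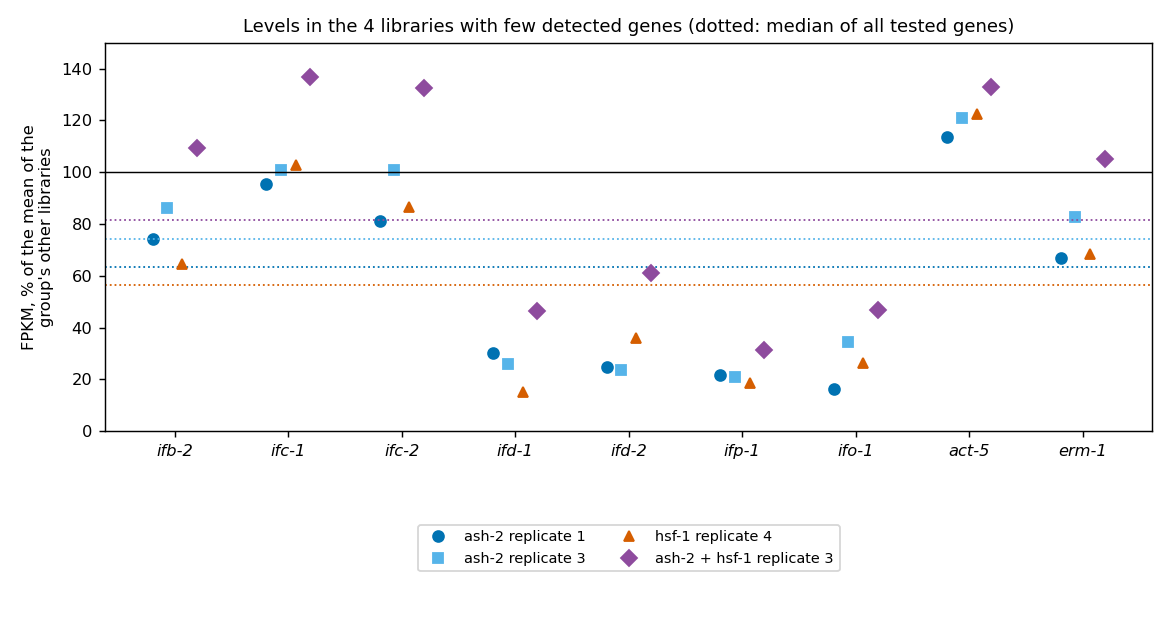
FPKM of the 9 genes in each of the 4 libraries with few detected genes, as a percentage of the mean of the other libraries of the same group, with the median of all tested genes in that library as a dotted line. ifd-1, ifd-2, ifp-1 and ifo-1 lie between 15.3% and 61.1%, and act-5 lies between 113% and 133%.

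Other genes of the same structures were read from lists. Among the other filament and lamin genes, ifa-4, which encodes a filament protein of the excretory canal, was higher with hsf-1 RNAi (23.8 ± 3.77 to 56.2 ± 16.2 FPKM, log2 change 1.19 ± 0.22, adjusted p = 0.00169, limma), and the other 4 of 5 were not called. With ash-2 RNAi ifa-3 was higher (1.43 ± 0.42, adjusted p = 0.022) and ifa-1 lower (-0.52 ± 0.18, adjusted p = 0.0464), and ifb-1, the shared partner of the epidermal filaments, and lmn-1, the lamin, were not called. With hsf-1 RNAi 3 of 11 brush border and terminal web partners were higher, against 7.72% of all genes tested, and 0 lower. They were eps-8, whose product caps and bundles microvillar actin (17.2 ± 2.56 to 43.8 ± 6.58 FPKM, 1.32 ± 0.24, adjusted p = 0.00125), bbln-1, whose product keeps the endotube filaments in order (0.84 ± 0.20, adjusted p = 0.0115), and spc-1, which encodes alpha-spectrin (0.64 ± 0.19, adjusted p = 0.0438). Without the 4 libraries with few detected genes 7 of the 11 were higher, against 17.9% of all genes tested, among them sma-1, which encodes a heavy spectrin (1.03 ± 0.23, adjusted p = 0.00544), and sma-5 (1.77 ± 0.25, adjusted p = 0.000136). With ash-2 RNAi 0 of the 11 were called (2 at an unadjusted p under 0.05). With both clones against ash-2 RNAi eps-8 (1.15, adjusted p = 0.00387) and sma-5, which encodes a kinase needed for the form of the intestinal tube (1.66, adjusted p = 0.0492), were higher. Without these libraries the pair stood at 0.73 (adjusted p = 0.0318) and 1.14 (adjusted p = 0.0238).

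Genes of apical transport, polarity and sorting gave 3 calls with hsf-1 RNAi, where 7.72% of all genes tested were called higher and 381 of 13084 lower. Of 6 apical transporters the water channel gene aqp-4 was higher with hsf-1 RNAi (25.3 ± 2.39 FPKM, log2 change 1.16 ± 0.21, adjusted p = 0.00159, limma). Of 17 polarity and junction genes the junction gene vab-9 was higher (0.76 ± 0.19, adjusted p = 0.0154). Of 10 genes of apical sorting let-767, an enzyme of lipid synthesis, was lower (-0.52 ± 0.12, adjusted p = 0.00716). The medians of these lists were -0.17, -0.13 and -0.16, beside -0.03 over all genes tested. Without the 4 libraries with few detected genes 2 of 6, 5 of 17 and 1 of 10 were higher, against 17.9% of all genes tested. In that fit let-767 was lower, against 4.06% called lower over all genes tested. With ash-2 RNAi 0 of these 33 genes were called (limma; 5 at an unadjusted p under 0.05), and their list medians were -0.67, 0.19 and -0.06 beside -0.32. With those libraries left out the junction gene dlg-1 was called higher there (0.98 ± 0.26, adjusted p = 0.017).

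Markers of the intestine as a whole did not follow the filament genes under hsf-1 RNAi. Of 11 markers 5 were lower and 1 higher, with a median log2 change of -0.54. Of all 13084 genes tested 381 were called lower and 7.72% higher. The cathepsin gene cpr-1 was at 243 ± 24.1 FPKM against 1110 ± 217 with L4440 (-2.17 ± 0.19, adjusted p = 1.32e-06, limma), and asp-1 (-1.25), cpr-6 (-1.27) and mtl-2 (-1.11) were also called lower. The remaining calls, named after their values were seen, were the esterase gene ges-1 (-1.07, adjusted p = 0.0364) and the gene of the intestinal GATA factor elt-2, which was the higher one (1.37 ± 0.42, adjusted p = 0.0453). Without the libraries with few detected genes elt-2 was at 1.57 ± 0.20 (adjusted p = 6.75e-05) and ges-1 lost its call (-0.77, adjusted p = 0.0547). In that fit asp-5 was called lower (-0.67 ± 0.14, adjusted p = 0.00297). The mean elt-2 level was 6.60 ± 1.65 FPKM in controls, 3.43 ± 2.43 under ash-2 RNAi, 18.0 ± 4.89 under hsf-1 RNAi and 17.1 ± 7.05 under both clones. The summed level of the 11 markers was 4071 to 6177 FPKM in the L4440 libraries, 2673 to 3691 under ash-2 RNAi, 1833 to 2700 under hsf-1 RNAi and 1079 to 1649 under both clones, and none of the 11 was at 0 in all libraries of a group. With ash-2 RNAi 3 of the 11 were lower and 0 higher, against 15.5% of all genes tested called lower. When each library was centred on the mean of these markers, all 9 genes were called higher with hsf-1 RNAi, against 48.9% of all genes tested, whose median was then 0.57. With both clones against L4440 all 9 were again called higher under this centring, against 53.7%.

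**Figure D5:**
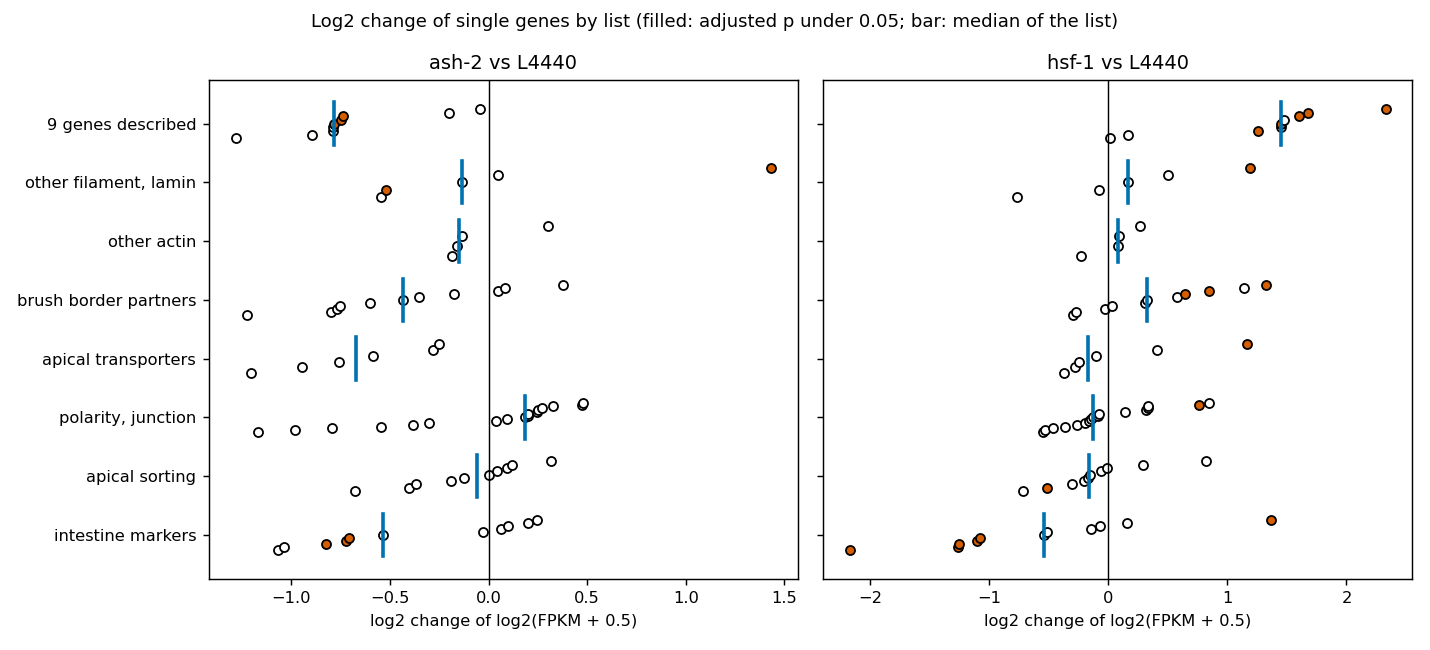
Log2 change of single genes with ash-2 RNAi (left) and hsf-1 RNAi (right) against L4440, 1 row a list, with filled points for an adjusted p under 0.05 and a bar at the list's median. With hsf-1 RNAi the 9 genes have a median of 1.45 and the intestine markers one of -0.54.

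The genes outside the 9 whose pattern over the 17 libraries was most like that of ifb-2 were F14B8.6, C45G7.13 and cebp-1, with root mean square differences of 0.16, 0.22 and 0.25 on the log2 scale after each gene was centred on its L4440 mean. Among the 9 themselves ifc-1 was nearest to ifb-2, at 0.24. For act-5 the nearest were ZK355.2, T07A9.14 and lev-11, the muscle tropomyosin gene, at 0.11, 0.14 and 0.14. For erm-1 they were scpl-4, lmn-1 and raga-1, at 0.08, 0.10 and 0.10.

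In the authors' deposited table for hsf-1 RNAi against L4440, the 6 filament genes and ifo-1 were marked significant and act-5 and erm-1 were not. The authors' deposited table gave ifp-1 a fold change of 3.51 with a q-value of 1.54e-06 and ifo-1 a fold change of 3.28 with a q-value of 2.84e-09 in that comparison. For ash-2 RNAi against L4440 the authors' deposited table marked ifp-1 (q-value 0.00864) and not ifb-2 (0.03), ifc-1 (0.152) or ifc-2 (0.0474). Fold changes in the authors' deposited table were 0.40 for ifp-1, 0.596 for ifb-2 and 0.576 for ifc-2. A q-value under 0.05 was thus not enough for the mark. The calls in the text above rest on adjusted p alone, so marks and calls follow unlike rules. For both clones against ash-2 RNAi the authors' deposited table marked 6 of the 9, with ifc-2 (q-value 0.113), act-5 and erm-1 unmarked.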

How the data were processed

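RNA of 17 whole-animal libraries was sequenced after a TruSeq stranded mRNA preparation, per the labels' protocols, and the labels call them biological replicates. The submitters' processing notes name cutadapt, HISAT2, StringTie and DESeq2 with build WBcel235; which versions and settings were used, and whether counting used strand, is not given in the sources used here. FPKM values per gene and library were made and deposited by the authors. Fold changes (a ratio of group means), log2 fold changes, p-values and q-values were deposited by the authors in 3 comparison tables, used only in the closing paragraph of the results above. A sheet of gene symbols was not used.

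The scale of all tests is log2(FPKM + 0.5), on which changes of low genes come out too small. The 13084 genes that reached an FPKM of 1 in 4 or more libraries were fitted with limma 3.58.1 (lmFit, eBayes with trend and robust settings, all 17 libraries together) in R 4.3.3, after checks on simulated data. p was adjusted by Benjamini-Hochberg over these genes, and calls were made where it was under 0.05; higher, lower and rose mean called unless a p says otherwise. Intervals are 95% intervals of the fit. p-values measure spread between these libraries. Tables used Python 3.11.15 with pandas 2.3.3. Transcript lengths and coordinates came from the WBcel235 annotation, 99.1% of genes having a length. Depth was estimated from the most common low value of FPKM times length within a fixed window.

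The 9 genes and the lists were chosen with earlier results of these data known. Besides the 9, the text names called list genes (at most 4 a list and comparison, with the smallest adjusted p), paralogs, the targets and the nearest genes; ges-1 and elt-2 were added after their values were seen. Lists cover other filament and lamin genes (ifa-2 matched no gene under that name), other actins, brush border partners, apical transporters, polarity, sorting, and markers of intestine, excretory canal, body wall muscle, hypodermis, neuron, pharynx, germline, oocyte, sperm and embryo. With hsf-1 RNAi the markers not described above gave 0 of 7 called for body wall muscle, 0 of 6 for hypodermis, 3 of 7 higher for neuron, 0 of 5 for pharynx, 0 of 7 for germline, 0 of 6 for oocyte, 0 of 6 for sperm and 0 of 4 for embryo (limma; 1, 2, 4, 1, 0, 1, 2 and 1 at an unadjusted p under 0.05). With ash-2 RNAi they gave 0 of 7, 1 of 6 lower, 1 of 7 higher, 2 of 5 lower, 0 of 7, 0 of 6, 6 of 6 lower and 1 of 4 higher in the same order (2, 3, 3, 4, 0, 2, 6 and 3 at an unadjusted p under 0.05), and 0 of 7 for excretory canal (0 unadjusted). Over all genes tested 7.72% were called higher with hsf-1 RNAi. With ash-2 RNAi 546 of the 13084 were called higher and 15.5% lower. Some counts moved without the 4 libraries with few detected genes. For hsf-1 RNAi hypodermis had 1 of 6 higher, neuron 4 of 7, pharynx 1 of 5 and sperm 2 of 6, against 17.9%. Oocyte had 1 of 6 lower, against 4.06%. For ash-2 RNAi hypodermis had 1 of 6 higher and 1 lower, and embryo had 2 of 4 higher. Neuron had 0 of 7 and pharynx 1 of 5 lower, against 3.93% higher and 11.6% lower over all genes tested. Alternatives were other pseudocounts, no filter, 2 other scalings, the libraries with few detected genes left out or their number as a covariate, replicate blocks, other fit settings, and each library left out; centring on intestine markers and removing a trend on transcript length were added after the data were seen.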

Additional observations from a re-analysis of the deposited data

Results flagged for a closer look

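In groups of 4 or 5 libraries, a library was looked at again where it stood far from the others of its group for the spread of that group. This was the case in 2 of the 36 combinations of gene and group, and chance alone gives about 1 in 20. In ash-2 replicate 1 ifc-2 was at 21.61 FPKM, and the other ash-2 libraries were at 26.1 to 27.02. In hsf-1 replicate 4 erm-1 was at 80.21 FPKM, and the other hsf-1 libraries were at 113.7 to 119.6. Both libraries are among the 4 with few detected genes. Over all tested genes the median stood at 63.3% and 56.5% of the mean of the group's other libraries in this pair.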

How the results depend on the processing

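Of the 693 values of single genes under alternatives other than leaving out a library, 578 kept their direction and their side of the threshold, 51 passed it, 20 no longer did and 44 changed sign. Of the 20 calls, 240 of 260 alternative values kept the call and 0 changed sign. The number of the 9 genes called moved as follows. With ash-2 RNAi, 3 became 1 under median-of-ratios scaling, 1 with the length trend removed, 2 with intestine centring (1 of them higher), and 4 with detected genes as covariate, the block by description number or a fit of these groups alone. Over all genes tested 16.4%, 13.8%, 11.2%, 10.8%, 25.4% and 20.3% were called lower in the same order, and 20.6% higher with intestine centring. With hsf-1 RNAi, 5 became 4 with a pseudocount of 0.1, no filter or the replicate block, 6 with a pseudocount of 1, 7 under median-of-ratios scaling, quantile normalization, the covariate, the block by description number, the length trend removed or without the libraries with few detected genes, and 9 with intestine centring (48.9% of all genes tested called higher). The share of all genes called higher was 6.78%, 4.24% and 5.69% where 4 were called and 8.33% where 6 were. Where 7 were called it was 8.60%, 8.89%, 14.0%, 9.39%, 8.73% and 17.9%, in the same order. For both clones against ash-2 RNAi, 7 became 6 under quantile normalization, in a fit of these groups alone and with the length trend removed, and 8 with intestine centring. Of all genes tested 7.36%, 7.94%, 10.5% and 37.9% were called higher there, in the same order. For both clones against hsf-1 RNAi, 3 became 5 without the libraries with few detected genes, 5 with detected genes as covariate (1 of them higher), 4 under quantile normalization and 2 in a fit of these groups alone. Of all genes tested 14.8%, 12.9%, 8.90% and 3.05% were called lower there, in the same order, and 22.5% higher with the covariate. For both clones against L4440, 2 became 1 with a pseudocount of 0.1, 1 without a filter, 1 with the replicate block, 4 under median-of-ratios scaling, 4 under quantile normalization, 4 in a fit of these groups alone, 4 with the length trend removed, 5 without the libraries with few detected genes, 3 with a pseudocount of 1, the block by description number or no trend and robust settings, 6 with detected genes as covariate and 9 with intestine centring (53.7% of all genes tested called higher). For the settings before intestine centring the share of all genes called higher was, in the same order, 3.43%, 1.97%, 3.13%, 4.555%, 6.19%, 3.875%, 5.54%, 6.11%, 3.68%, 4.26%, 3.80% and 8.48%. With 1 library left out in turn the counts were 3 to 4 with ash-2 RNAi, 4 to 7 with hsf-1 RNAi, 6 to 7 for both clones against ash-2 RNAi, 3 to 5 against hsf-1 RNAi, 1 to 3 against L4440 and 0 to 0 for the interaction. The causes were not tested.

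Signs changed in values that had not been called. With ash-2 RNAi, act-5 was 0.14 and erm-1 0.30 under median-of-ratios scaling, 0.19 and 0.35 with intestine centring, and 0.23 and 0.38 with the length trend removed; without the libraries with few detected genes ifd-2 was 0.14, ifo-1 0.062 and erm-1 0.17; with the covariate ifd-1 was 0.53, ifd-2 0.29, ifp-1 0.15, ifo-1 0.47 and erm-1 0.28. With hsf-1 RNAi erm-1 was -0.076 with the covariate. For both clones against ash-2 RNAi, act-5 was -0.22 under median-of-ratios scaling and -0.31 with the length trend removed, and erm-1 was 0.046 under quantile normalization, 0.089 with the replicate block by description number and 0.35 with intestine centring. Against hsf-1 RNAi, ifd-1 was 0.056, 0.044, 0.61, 0.14 and 0.074 under median-of-ratios scaling, quantile normalization, the covariate, intestine centring and the length trend removed, ifo-1 was 0.33 with the covariate, and erm-1 was 0.074, 0.090 and 0.0077 with the covariate, intestine centring and the length trend removed. Against L4440, erm-1 was 0.0199 under median-of-ratios scaling, 0.70 with intestine centring and 0.049 with the length trend removed, and act-5 was 0.60 with intestine centring. For the interaction, quantile normalization gave ifp-1 -0.24, ifo-1 -0.012, act-5 0.018 and erm-1 0.042; leaving out the libraries with few detected genes gave ifd-1 -0.18, ifp-1 -0.60 and ifo-1 -0.49; the covariate gave ifp-1 -0.43 and ifo-1 -0.14; and the block by description number gave ifd-2 0.0101 and erm-1 0.049.

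With 1 library left out, erm-1 ranged from -0.13 to 0.079 with ash-2 RNAi, -0.041 to 0.15 with hsf-1 RNAi, -0.13 to 0.12 for both clones against ash-2 RNAi, -0.20 to 0.064 against hsf-1 RNAi, -0.14 to 0.077 against L4440 and -0.16 to 0.11 for the interaction. act-5 ranged from -0.058 to 0.11 for both clones against ash-2 RNAi. Against hsf-1 RNAi ifd-1 ranged from -0.65 to 0.27 and ifo-1 from -0.68 to 0.032. For the interaction ifd-2 ranged from -0.47 to 0.24 and ifp-1 from -0.19 to 0.74.

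Over 24 pairs of libraries that share a replicate number the mean correlation of deviations was 0.157 (14 over 0.1), over 22 that share a description number it was 0.222 (14 over 0.1), and over 84 with different numbers it was -0.0392 (32 over 0.1). Since not every pair was over 0.1, the numbers were not taken as a pairing, and with the replicate block 3, 4, 7, 3, 1 and 0 of the 9 genes were called in the 6 comparisons. That rule cannot tell whether libraries of the same number were handled together, as it asks for every pair. With the block by description number 25.4% of all genes tested were called lower with ash-2 RNAi, against 15.5% without a block. Over all genes tested, calls higher and lower moved under quantile normalization from 546 and 2024 to 1632 and 1319 with ash-2 RNAi, from 1010 and 381 to 1163 and 994 with hsf-1 RNAi, from 1569 and 492 to 963 and 1314 for both clones against ash-2 RNAi, and from 168 and 1102 to 668 and 1164 against hsf-1 RNAi. Low levels limit ifd-1, ifp-1 and ifo-1, which rested on an estimated 27.8, 27.9 and 68.1 fragments in their lowest libraries.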
